A study of Mus musculus with 16 samples.

Results

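The T cell receptor complex and its coreceptors were followed here as 10 genes, chosen by their symbols: Cd3d, Cd3e, Cd3g, Cd247, Cd4, Cd8a, Cd8b1, Lck, Zap70 and Cd28. Earlier results of these data were known when they were chosen. Of the 56605 probes on the array, 21 carried one of these symbols in the deposited table. Of those 21 probes, 19 were well above background on all 16 arrays, and the fourth Cd247 probe and the second Cd28 probe on none. Each gene was represented by its brightest probe, and all 10 genes entered the test, which took 30581 of the 37006 gene names. The series measured RNA of whole pancreatic tumours, grown orthotopically in C57BL/6 females, on 1-colour arrays, labelled with Cy5. The 16 arrays comprised 5 from tumours taken 10 days after ADH-503 was begun, 5 from tumours taken 48 h after it was begun, and 6 from vehicle-treated mice. The question was which genes change at these times under ADH-503, an agonist of CD11b, the alpha M integrin subunit found on myeloid cells. Titles of the treated samples call the compound LA1. The tumour line, the dose and the animals' age were not given in the sources used here. The vehicle arrays carry no time label and serve both comparisons, so the age of their tumours relative to either treated group is not known.

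The T cell receptor recognises peptide on MHC through its alpha and beta chains, which have no signalling parts of their own. The CD3 gamma, delta and epsilon chains (Cd3g, Cd3d, Cd3e) and the zeta chain (Cd247) carry the signal into the cell. CD4 binds MHC class II and CD8, an alpha and beta chain pair (Cd8a, Cd8b1), binds MHC class I. Both coreceptors bring the kinase LCK to the receptor, where it phosphorylates the CD3 and zeta tails. The kinase ZAP-70 then docks on those tails, and CD28, which binds CD80 and CD86, gives the costimulatory signal. In mice, Cd4 is also known from subsets of dendritic cells, Cd8a from cross-presenting dendritic cells, and Cd247, Lck and Zap70 from natural killer cells. In whole tumour RNA, fewer T cells and less RNA of a gene per T cell cannot be told apart.

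Sequence positions of the CD3 genes are given first, since Cd3d varied over the arrays with each of the other CD3 chain genes. Cd3d and Cd3g lie head to head on mouse chromosome 9, with start sites 1355 bases apart, and the Cd3e start site is 27825 bases from that of Cd3d. The windows printed here are those of RefSeq around the start site, mostly upstream of it, on build GRCm38.p6 and 5′ to 3′ on the gene's own strand. Capitals mark matches on either strand to an ETS core (AGGAAG or CTTCCT), an E-box (CAGGTG or CACCTG), a TCF/LEF motif (CTTTGA or TCAAAG) or a GATA motif (AGATAA or TTATCT). No matches overlapped in these windows.
Cd3d, chr9:44981536-44981835, plus strand: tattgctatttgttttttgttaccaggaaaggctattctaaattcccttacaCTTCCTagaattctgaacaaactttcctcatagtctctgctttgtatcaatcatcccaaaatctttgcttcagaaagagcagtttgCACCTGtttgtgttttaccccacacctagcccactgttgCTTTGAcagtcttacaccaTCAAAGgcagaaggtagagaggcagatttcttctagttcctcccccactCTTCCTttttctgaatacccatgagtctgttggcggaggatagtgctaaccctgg
Cd3g, chr9:44980382-44980681, minus strand: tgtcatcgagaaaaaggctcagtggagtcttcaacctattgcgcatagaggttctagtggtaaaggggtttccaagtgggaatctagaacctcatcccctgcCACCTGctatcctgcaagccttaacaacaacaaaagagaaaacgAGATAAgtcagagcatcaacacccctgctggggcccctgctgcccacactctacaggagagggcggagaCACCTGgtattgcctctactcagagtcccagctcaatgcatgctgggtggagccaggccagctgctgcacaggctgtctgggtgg
Cd3e, chr9:45009562-45009861, minus strand: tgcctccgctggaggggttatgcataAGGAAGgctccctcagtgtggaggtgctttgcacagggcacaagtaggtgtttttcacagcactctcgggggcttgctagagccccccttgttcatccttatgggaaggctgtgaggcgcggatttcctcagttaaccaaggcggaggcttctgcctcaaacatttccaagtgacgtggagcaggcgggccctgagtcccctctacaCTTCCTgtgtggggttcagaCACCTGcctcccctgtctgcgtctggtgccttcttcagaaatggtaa
The Cd3d window held 5 matches, the Cd3g window 3 and the Cd3e window 3. Promoter windows were found for 7 of the 10 genes, in 10 windows, since Lck and Zap70 have alternative start sites. The E-box letters stood in 8 of the 10 windows, among them those of Cd3d, Cd3e, Cd3g, Cd247 and Lck, and in 20.2% of 32851 windows of all genes. ETS core letters stood in 7 of the 10, against 35.4% of all windows. A TATAAA match on either strand stood in 0 of the 10 and in 13.6% of all. A match is a run of letters and shows no binding.

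Probes of the array are 60 bases long and were placed by the authors' files on build mm9. The probes printed next carried values that set them apart in the results: the brightest Cd8a probe had the widest range over the arrays, and the Cd3d and Cd247 probes have placements longer than the probe itself, so that they join separated stretches of the gene.
Cd8a probe 1, NM_009857, chr6:71323885-71323944, plus strand: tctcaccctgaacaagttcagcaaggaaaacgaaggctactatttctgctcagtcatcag
Cd3d probe 2, NM_013487, chr9:44794171-44794402, plus strand: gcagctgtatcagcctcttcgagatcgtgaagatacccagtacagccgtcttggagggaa
Cd247 probe 3, NM_031162, chr1:167786567-167787585, plus strand: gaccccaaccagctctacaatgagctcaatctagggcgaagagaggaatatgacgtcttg
The second Cd8a probe lies at chr6:71328911-71328970 on mm9 and was designed to another Cd8a transcript (NM_001081110). Probes differ in brightness, so differences and sums over probes are read only for their change between groups.

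Values are log2 processed signals minus the 75th percentile of each array, so 0 means a signal equal to that percentile. The percentile itself ran from 4953 to 6736 signal units over the 16 arrays, and 74.9% to 81.2% of the probes had a spot well above background. No spot was saturated. Arrays lay on 2 slides, scanned separately, of which slide 1 held 3 of the 10 day, 4 of the 48 h and 1 of the vehicle arrays, and slide 2 held 2, 1 and 5 of them. Nothing in the labels says that the samples of a group came from separate animals, so p-values cover only the variation among these samples, which may be technical in part. Vehicle replicate 2 and 48 h replicate 5 share an ID number in their titles. Markers of the tissue were present. All 12 ductal and tumour epithelium markers and all 18 pancreatic acinar markers tested were well above background on 5 or more arrays. Among the 6 thymocyte markers, Rag1 reached that level on none. Rag2 did so on 14 arrays, and Dntt, Ptcra, Cd1d1 and Ccr9 each on all 16.

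None of the 10 genes passed the adjusted threshold between any pair of groups, which does not show that they were equal. With limma and Benjamini-Hochberg adjustment at 0.05, 0 of the 10 were called at 10 days against 48 h, at 10 days against vehicle or at 48 h against vehicle, and 0% of the 30581 genes tested were called in each of the 3 comparisons. At an unadjusted p under 0.05, limma called 1 of the 10 genes (Cd3g) at 10 days against 48 h, where 3.47% of all genes passed in either direction and 1.17% as lower. At the same unadjusted threshold, 0 of the 10 genes passed at 10 days against vehicle, where 3.53% of all genes did, and 0 at 48 h against vehicle, where 2.57% did. The values of 2 groups overlapped for every one of the 10 genes in each comparison, against 0.494%, 0.216% and 0.144% of all genes without overlap at 10 days against 48 h, 10 days against vehicle and 48 h against vehicle. At 10 days 8 of the 10 genes were lower than vehicle and 2 higher, with a median log2 fold change of -0.12 against -0.0092 over all genes, of which 52.2% were lower. At 48 h 6 were lower than vehicle and 4 higher, with a median of -0.016 against -0.013 over all genes. Between 10 days and 48 h the split was 5 lower and 5 higher, with a median of 0.00031 against 0.0043. Both comparisons with vehicle share the same 6 vehicle arrays.

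**Figure D1:**
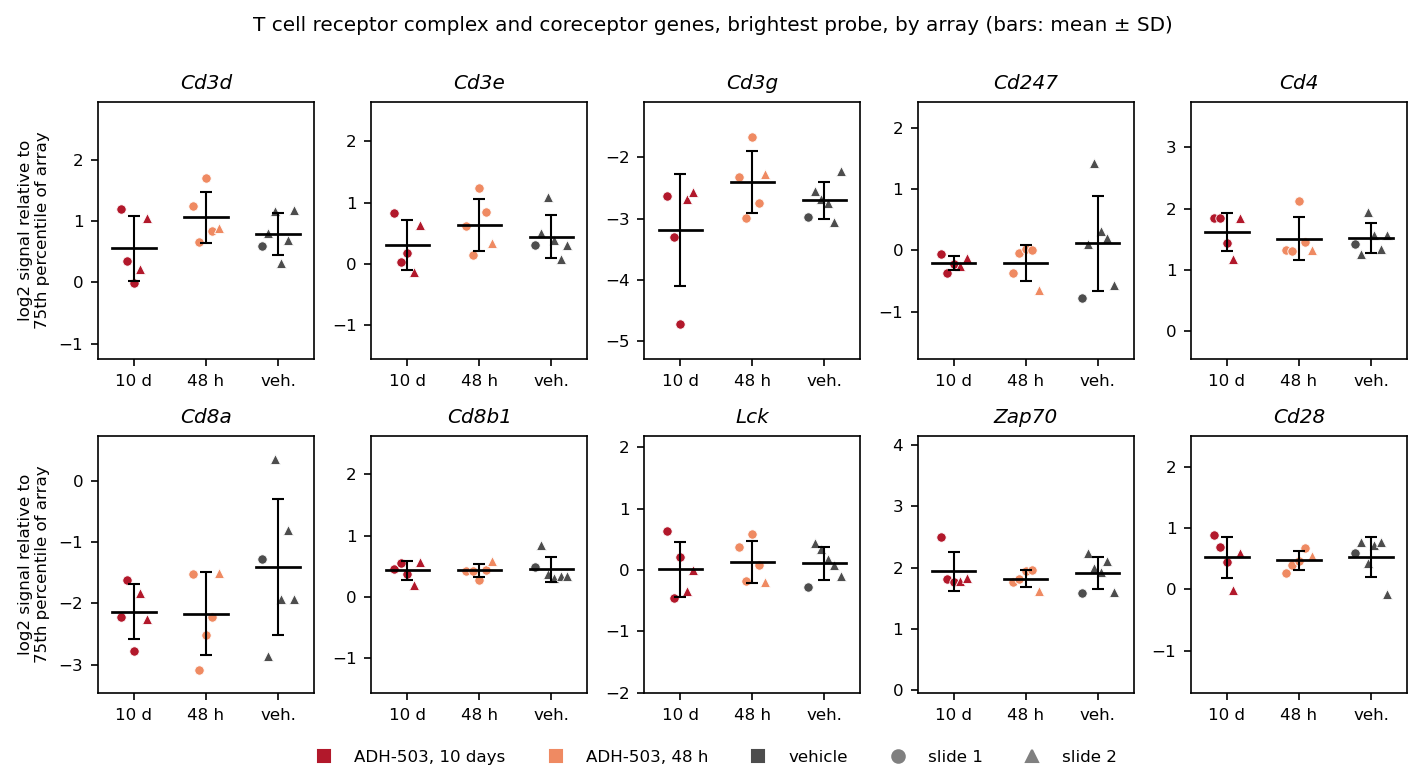
Log2 signal relative to the 75th percentile of the array (vertical axis) for the brightest probe of each of the 10 genes, 1 point per array, with bars for the mean and SD of 5 arrays at 10 days, 5 at 48 h and 6 of vehicle, and point shapes for the slide. The groups overlap in every panel, the lowest Cd3g array is at 10 days (-4.72), and the highest Cd8a and Cd247 arrays are of vehicle (0.35 and 1.42).

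Over the arrays Cd3d followed both Cd3e and Cd3g (r = 0.79 each), while Cd3e and Cd3g followed each other less (r = 0.49). Cd3d, the delta chain gene, read 1.19, 0.35, -0.011, 0.21 and 1.04 on the 10 day arrays, 1.24, 0.65, 1.70, 0.84 and 0.88 on the 48 h arrays, and from 0.31 to 1.18 with a median of 0.75 on the vehicle arrays. Replicates 2, 3 and 4 at 10 days lay below every 48 h array, and the other two within the 48 h range. The mean was 0.56 ± 0.53 at 10 days (SD, n = 5), 1.06 ± 0.42 at 48 h (SD, n = 5) and 0.79 ± 0.34 in vehicle (SD, n = 6). At 10 days Cd3d was lower than at 48 h by a log2 difference of -0.51 (SE 0.26, 95% CI -1.06 to 0.047), and 1 of the 5 arrays at 10 days was above the 48 h mean. Against vehicle the log2 fold change was -0.23 (95% CI -0.76 to 0.30) at 10 days and 0.27 (95% CI -0.26 to 0.80) at 48 h. The first was -0.091 without 10 day replicate 3, and the second 0.11 without 48 h replicate 3. The probe across separated stretches of Cd3d gave -0.53 at 10 days against 48 h, and its values followed those of the brightest probe with r = 0.98 over the 16 arrays.

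Cd3e encodes the epsilon chain, which pairs with both the gamma and the delta chain. It read 0.83, 0.026, 0.18, -0.14 and 0.64 at 10 days, 0.63, 0.15, 1.23, 0.85 and 0.34 at 48 h, and from 0.075 to 1.09 with a median of 0.35 in vehicle. The highest array was 48 h replicate 3, the lowest 10 day replicate 4, and all 3 groups overlapped. The log2 difference was -0.33 (SE 0.24, 95% CI -0.84 to 0.18) at 10 days against 48 h, -0.14 (95% CI -0.63 to 0.35) at 10 days against vehicle and 0.19 (95% CI -0.30 to 0.68) at 48 h against vehicle. Its second probe gave a smaller difference at 10 days against 48 h, -0.088 (95% CI -0.51 to 0.34), though both probes tracked each other with r = 0.87. Leaving out 48 h replicate 3 brought the difference of the brightest probe at 10 days against 48 h to -0.18 and that at 48 h against vehicle to 0.0435. Leaving out vehicle replicate 3 brought the difference at 10 days against vehicle to -0.0091.

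Cd3g, the gamma chain gene, read -2.63, -3.30, -4.72, -2.68 and -2.57 at 10 days, -2.32, -2.98, -1.66, -2.75 and -2.27 at 48 h, and from -3.05 to -2.21 with a median of -2.71 in vehicle. The third 10 day array was the lowest of all 16. All 5 arrays at 10 days were below the 48 h mean, yet 3 of them lay inside the 48 h range. The log2 difference at 10 days against 48 h was -0.79 (SE 0.36, 95% CI -1.56 to -0.013), with an unadjusted p of 0.0466 and an adjusted p of 0.999818 by limma. Without 10 day replicate 3 it was -0.40, and the log2 fold change at 10 days against vehicle was -0.097 in place of -0.48. At 48 h Cd3g was 0.31 above vehicle (95% CI -0.43 to 1.05), and 0.12 above it without 48 h replicate 3.

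The 3 CD3 chain genes had the same order of group means, with 48 h highest, vehicle between and 10 days lowest, but no step in this order exceeded the spread between arrays after adjustment. Within slide 1 alone, the difference at 10 days against 48 h was -0.60 for Cd3d, -0.37 for Cd3e and -1.12 for Cd3g. Within slide 2, where 48 h has 1 array, it was -0.25, -0.089 and -0.36. With slide as a block it was -0.52, -0.31 and -0.89. Against vehicle the order was not kept within slides: Cd3e at 10 days was 0.043 above vehicle on slide 1, Cd3e at 48 h gave -0.14 on slide 2, and Cd3g at 10 days gave 0.021 on slide 2. The sign at 10 days against 48 h stayed negative for these 3 genes under every alternative and with every array left out in turn. These genes were read on the same arrays and varied together over them, so their shared order and sign are not 3 separate results.

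**Figure D2:**
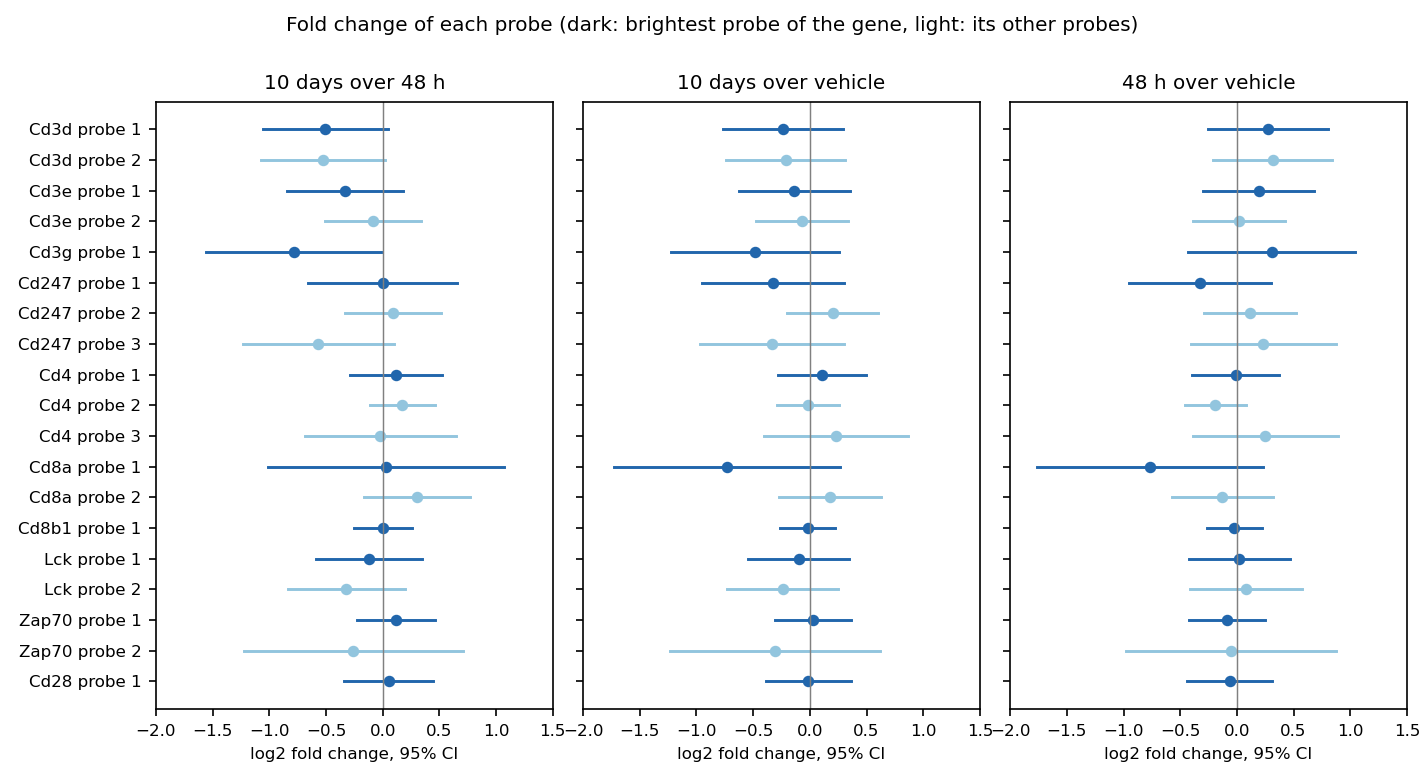
Log2 fold change with its 95% confidence interval (horizontal axis) for the 19 probes above background, in dark blue the brightest probe of each gene and in light blue its other probes. Every interval contains 0 except that of Cd3g at 10 days over 48 h (-1.56 to -0.013), and the widest intervals belong to the brightest Cd8a probe.

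Cd247, the zeta chain gene, had 3 probes above background, each designed to a different transcript. The brightest (NM_001113391) read -0.065, -0.37, -0.22, -0.26 and -0.12 at 10 days, -0.38, -0.038, 0.015, 0.012 and -0.64 at 48 h, and from -0.77 to 1.42 with a median of 0.15 in vehicle. The vehicle arrays spanned the whole range, from the lowest to the highest of the 16. The mean was -0.21 ± 0.12 at 10 days (SD, n = 5), -0.21 ± 0.29 at 48 h (SD, n = 5) and 0.12 ± 0.77 in vehicle (SD, n = 6). Against vehicle the log2 fold change was -0.33 (95% CI -0.95 to 0.30) at 10 days and -0.32 (95% CI -0.95 to 0.30) at 48 h, and without vehicle replicate 3 these were -0.065 and -0.063. The second probe (NM_001113393) ran the other way at both times, 0.20 at 10 days and 0.11 at 48 h, and correlated with the brightest at r = -0.15. The third probe (NM_031162), printed above, gave -0.33 at 10 days against vehicle and -0.57 at 10 days against 48 h (95% CI -1.23 to 0.098), with r = 0.53 to the brightest. The 3 probes differed in the sign of their fold change against vehicle at both times.

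Cd8a, the CD8 alpha chain gene, had the largest difference from vehicle of the 10 genes on its brightest probe. It read -2.22, -1.61, -2.77, -1.82 and -2.25 at 10 days, -1.52, -3.09, -2.52, -2.22 and -1.50 at 48 h, and from -2.86 to 0.35 with a median of -1.60 in vehicle. All 10 treated arrays were below the vehicle mean, and all of them except 48 h replicate 2 lay inside the vehicle range. The mean was -2.14 ± 0.45 at 10 days (SD, n = 5), -2.17 ± 0.67 at 48 h (SD, n = 5) and -1.41 ± 1.11 in vehicle (SD, n = 6). The log2 fold change was -0.73 (SE 0.47, 95% CI -1.73 to 0.27) at 10 days and -0.76 (SE 0.47, 95% CI -1.76 to 0.23) at 48 h, with adjusted p of 0.999727 and 0.999948 by limma. Without vehicle replicate 3, the array at 0.35, these were -0.38 and -0.41. Without the 2 arrays that share an ID number they were -1.02 and -1.22. On the arrays of slide 2 alone they were -0.61 and -0.071, and on those of slide 1, with 1 vehicle array, -0.93 and -1.06.

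The second Cd8a probe did not share this pattern. It read -2.20, -2.55, -2.60, -3.13 and -3.20 at 10 days, -2.87, -2.72, -3.55, -3.12 and -2.93 at 48 h, and from -3.50 to -2.61 with a median of -2.88 in vehicle. Its log2 fold change was 0.18 (95% CI -0.27 to 0.62) at 10 days and -0.13 (95% CI -0.58 to 0.32) at 48 h. Over the 16 arrays the 2 Cd8a probes correlated at r = 0.19. Cd8b1, the beta chain gene, whose product pairs with the alpha chain, correlated with the brightest Cd8a probe at r = -0.21 and had the smallest spread of the 10 genes, an SD of 0.15 over all arrays. It averaged 0.44 ± 0.15 at 10 days, 0.43 ± 0.11 at 48 h and 0.46 ± 0.21 in vehicle (SD, n = 5, 5 and 6). Its log2 fold change was -0.019 (95% CI -0.26 to 0.22) at 10 days and -0.022 (95% CI -0.26 to 0.22) at 48 h, the narrowest intervals among the members. Vehicle replicate 3, the highest array for the brightest Cd8a and Cd247 probes, was also the highest of the 16 in the summed linear level of the 8 erythroid markers, led by Hba-a1, Hba-a2 and Slc4a1: 28.8, against a vehicle median of 4.59. Over the other groups that sum ran from 0.865 to 3.54 at 10 days and from 0.742 to 6.17 at 48 h. Its part in the Cd8a and Cd247 values was not tested.

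**Figure D3:**
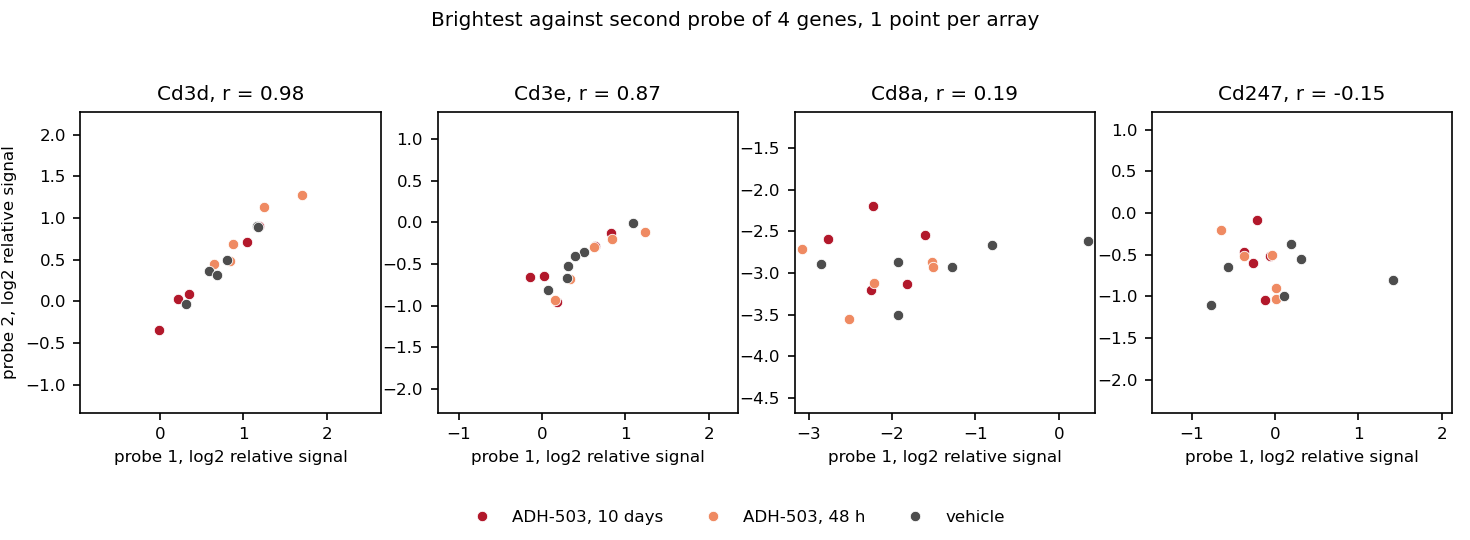
Brightest probe (horizontal axis) against second probe (vertical axis) of Cd3d, Cd3e, Cd8a and Cd247, both as log2 signal relative to the 75th percentile, 1 point per array coloured by group. The points of Cd3d and Cd3e lie along a line (r = 0.98 and 0.87), and those of Cd8a and Cd247 do not (r = 0.19 and -0.15).

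Cd4, the coreceptor gene for MHC class II, had 3 probes above background. The brightest read 1.84, 1.85, 1.43, 1.17 and 1.84 at 10 days, 1.33, 1.31, 2.13, 1.45 and 1.33 at 48 h, and from 1.26 to 1.95 with a median of 1.50 in vehicle. The other 48 h arrays lay close together and replicate 3 stood above every other array of the series. The log2 fold change was 0.11 (SE 0.18, 95% CI -0.28 to 0.49) at 10 days and -0.011 (SE 0.18, 95% CI -0.40 to 0.38) at 48 h. The second probe gave -0.015 and -0.19, and the third 0.23 and 0.25, each with an interval that contains 0. Within each array the difference of Cd8a minus Cd4 (log2, brightest probes) was lower in the treated groups on average, by a change of -0.84 at 10 days and -0.75 at 48 h relative to vehicle. These differences ran from -4.21 to -3.0 at 10 days, from -4.65 to -2.84 at 48 h and from -4.12 to -1.60 in vehicle, so the groups overlapped. The top of the vehicle range was vehicle replicate 3. This change holds for the brightest Cd8a probe only. The second Cd8a probe gave log2 fold changes of 0.18 at 10 days and -0.13 at 48 h against vehicle. The change of Cd4 minus Cd3e was 0.24 at 10 days and -0.20 at 48 h relative to vehicle, and it ran from 1.01 to 1.82 at 10 days, 0.608 to 1.16 at 48 h and 0.754 to 1.27 in vehicle.

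Lck, the kinase carried by both coreceptors, read 0.64, -0.46, 0.22, -0.34 and -0.0034 at 10 days, 0.38, -0.18, 0.59, 0.081 and -0.20 at 48 h, and from -0.28 to 0.44 with a median of 0.13 in vehicle. The 10 day arrays held both the highest and the lowest value. Its log2 fold change was -0.099 (95% CI -0.54 to 0.35) at 10 days and 0.022 (95% CI -0.42 to 0.47) at 48 h. Zap70, the kinase that docks on the phosphorylated tails, read 2.51, 1.81, 1.76, 1.78 and 1.83 at 10 days, 1.77, 1.82, 1.95, 1.96 and 1.62 at 48 h, and from 1.59 to 2.23 with a median of 1.96 in vehicle. The other 10 day arrays lay within the 48 h range, and replicate 1 was the highest of the 16. Its log2 fold change was 0.028 (95% CI -0.30 to 0.36) at 10 days and -0.088 (95% CI -0.42 to 0.24) at 48 h. A second Zap70 probe spread more, from -4.81 to -1.43 at 10 days, and followed the brightest at r = 0.23. Cd28, the costimulatory receptor gene, averaged 0.52 ± 0.34 at 10 days, 0.47 ± 0.16 at 48 h and 0.54 ± 0.33 in vehicle (SD, n = 5, 5 and 6). Its log2 fold change was -0.013 (95% CI -0.39 to 0.36) at 10 days and -0.064 (95% CI -0.44 to 0.31) at 48 h.

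In the model without slide, these intervals bound the fold change of each probe. Some differences within a slide lay outside them, such as Cd247 and Zap70 at 48 h against vehicle on slide 1. Slide 1 held 1 vehicle array. Over the brightest probes of the 10 genes, the outermost 95% bounds against vehicle corresponded to 0.302-fold and 1.41-fold at 10 days, and to 0.295-fold and 2.06-fold at 48 h. The lower bounds belong to Cd8a and the 48 h upper bound to Cd3g. For the only Cd8b1 probe, by contrast, the bounds were 0.834-fold and 1.17-fold at 10 days. That probe did not follow the brightest Cd8a probe (r = -0.21), so its bounds speak for that probe alone. The median width of a member's interval against vehicle was 0.935 on the log2 scale.

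Over the 16 arrays some members varied together and others did not. Given as a description, with arrays that share slides and tumour composition, the highest correlations between brightest probes were Cd3d with Cd3e (r = 0.79), Cd3d with Cd3g (r = 0.79), Cd3e with Lck (r = 0.75), Lck with Zap70 (r = 0.68) and Cd3e with Cd4 (r = 0.66). Cd3e and Cd3g correlated at r = 0.49. With the group means taken off, Cd3d still correlated with Cd3e at r = 0.75 and with Cd3g at r = 0.73, and Cd3e with Cd3g at r = 0.40. Of the 45 pairs, 8 were above 0.5 and 8 below 0, with a median of 0.21. Cd8a correlated with Cd3d at r = 0.12 and with Cd3e at r = 0.11, and Cd8b1 with Cd3e at r = 0.024. Cd28 followed Zap70 (r = 0.61) and Cd8b1 (r = 0.50), but not Cd3d (r = -0.044).

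**Figure D4:**
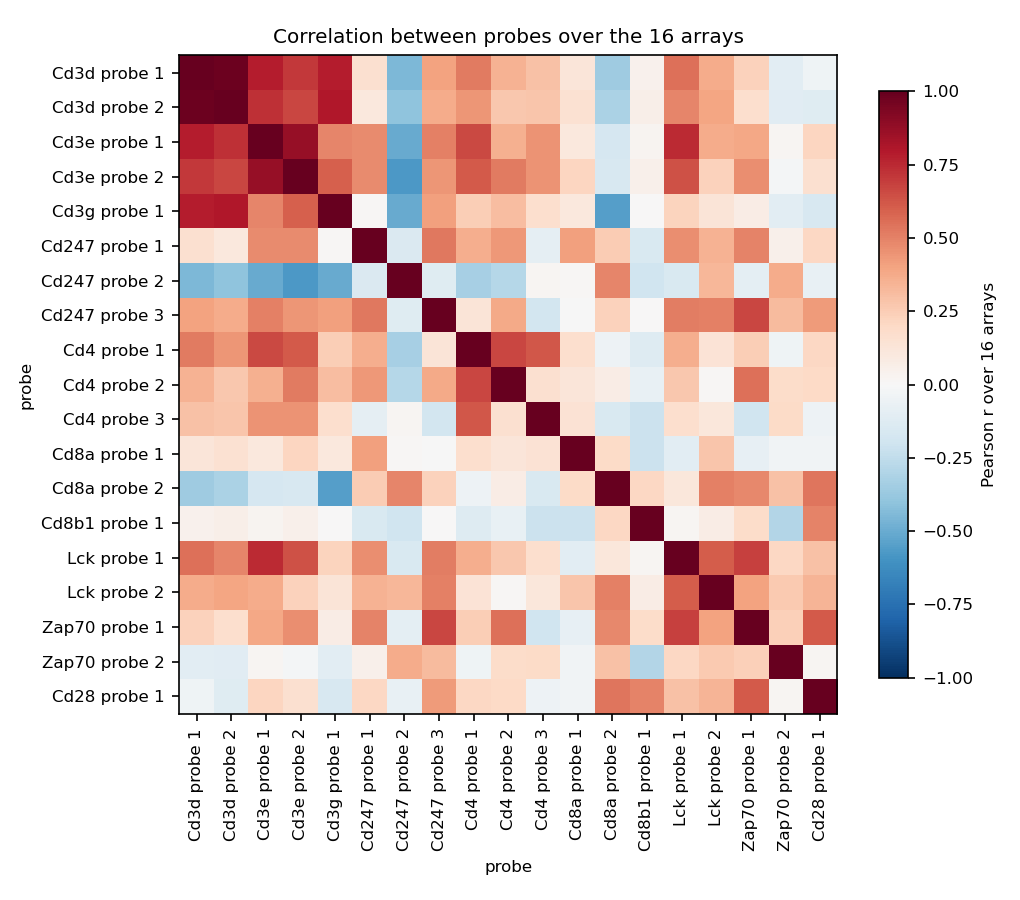
Pearson correlation over the 16 arrays (colour) between each pair of the 19 probes above background, ordered by gene. The brightest Cd3d probe is high with those of Cd3e and Cd3g (0.79 each), which reach 0.49 with each other. The second Cd247 probe and the second Cd8a probe are negative with all of these CD3 probes.

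Arrays differed in the mean over the 10 members, in which single probes weigh. Over the 10 brightest probes the mean was highest on vehicle replicate 3 (0.65), then 48 h replicate 3 (0.42) and 10 day replicate 1 (0.34), and lowest on 10 day replicate 3 (-0.33) and 10 day replicate 4 (-0.19). Each group thus held one of the 3 highest arrays, and the 2 lowest were both at 10 days. Vehicle replicate 3 was the highest of the 16 in 2 of the 10 genes, Cd247 (1.42) and Cd8a (0.35). On 10 day replicate 3 Cd3g read -4.72, the lowest of the 16. The 48 h replicate 3 array was the highest of the 16 in 4 of the 10 genes, and 10 day replicate 1 in 3. The 10 day replicate 4 array was the lowest in 3.

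Among the 30521 genes compared with each member, the 5 most like Cd3e over the 16 arrays included other T cell genes. They were Haghl (r = 0.886), Icos (r = 0.881), Edc4 (r = 0.871), Hacd3 (r = 0.870) and the transcript ENSMUST00000103299 (r = 0.865), which the authors' file describes as the constant region 2 of the T cell receptor beta chain. Icos is an inducible costimulatory receptor of T cells. With the group means taken off, r with Cd3e was 0.87 for Icos and 0.90 for the beta chain transcript. Among the members, Cd3d stood at rank 39, Lck at 95, Cd4 at 367, Cd3g at 2173 and Cd247 at 2429 in likeness to Cd3e, while Cd8a stood at 12882 and Cd8b1 at 15945. Icos averaged -0.38 ± 0.68 at 10 days, 0.063 ± 0.57 at 48 h and -0.12 ± 0.38 in vehicle (SD, n = 5, 5 and 6), the order of groups also seen for the CD3 chain genes. Its log2 difference at 10 days against 48 h was -0.45 (95% CI -1.14 to 0.25). The beta chain transcript averaged 0.42 ± 0.19 at 10 days, 0.46 ± 0.43 at 48 h and 0.38 ± 0.29 in vehicle, with a log2 fold change of 0.034 (95% CI -0.37 to 0.43) at 10 days and 0.075 (95% CI -0.33 to 0.48) at 48 h. A second probe of this transcript, which was not tested, averaged 0.080 ± 0.20 at 10 days, 0.49 ± 0.32 at 48 h and 0.41 ± 0.38 in vehicle (SD), with r = 0.68 to Cd3e. Its mean was thus lowest at 10 days, which that of the first probe was not. Icos and this transcript were described further after the likeness ranking was seen. That ranking used values with the group means left in, so an order of groups shared with Cd3e is not independent of it.

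The genes most like Cd4 were Mdm2 (r = 0.862), Scamp3 (r = 0.855), Rreb1 (r = 0.847), Rapgef2 (r = 0.840) and Ezh1 (r = 0.827). Cd3e came at rank 131 and Cd3d at 915 in likeness to Cd4. The 5 most like Cd8a were a probe to an unnamed transcribed region on chromosome 7 (r = 0.773), ENSMUST00000174341 (r = 0.768), A630066F11Rik (r = 0.763), AK142979 (r = 0.737) and Flacc1 (r = 0.737). Of these, A630066F11Rik, AK142979 and Flacc1 were well above background on 12, 11 and 9 arrays. In likeness to Cd8a, Cd247 stood at rank 977 and Cd8b1 at 24704.

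Downstream and beside the receptor, the wider pathway gave no called gene either. Lists named in this and the next paragraph were chosen with earlier results of these data known. All 43 genes of receptor-proximal signalling were tested, and limma called 0 in each comparison, as it did for 0% of all genes. At 10 days against vehicle 25 were lower and 18 higher, with a median of -0.016 against -0.0092 over all genes, and 2 had an unadjusted p under 0.05, both lower, against 3.53% of all genes in either direction. Among them was Trat1, a transmembrane adaptor of the receptor complex (-1.23, SE 0.56, adjusted p = 0.999727 by limma). Trat1 was well above background on 14 of the 16 arrays and ran from -7.89 to -3.63 at 10 days, -5.44 to -3.98 at 48 h and -4.67 to -3.61 in vehicle. At 48 h against vehicle 24 of the 43 were lower and 19 higher, 0 of them at an unadjusted p under 0.05. Of 13 names listed for the antigen receptor chains, 2 matched a symbol on the array: Tcra, with a log2 fold change of -0.17 (SE 0.087) at 10 days and -0.17 at 48 h, and Tcrb-J, with 0.062 (SE 0.18) at 10 days.

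Costimulatory and adhesion receptors gave 17 lower and 8 higher of 25 tested at 10 days against vehicle, with a median of -0.13, and 0 at an unadjusted p under 0.05. At 10 days against 48 h 16 were lower and 9 higher, with a median of -0.13 against 0.0043 over all genes. Of these, 2 had an unadjusted p under 0.05, both lower, against 1.17% of all genes that passed as lower. At 48 h against vehicle 12 were lower and 13 higher, with a median of 0.0090. Il2rb, the beta chain of the interleukin-2 receptor, was -0.37 (SE 0.18) at 10 days, and Cd96, a receptor of T and natural killer cells, 0.40 (SE 0.26) at 48 h. On the side of the presenting cell, where the ligands of CD28 are made, Cd80 gave -0.32 (SE 0.15) at 10 days against vehicle and Cd86 gave -0.19 (SE 0.14) at 48 h against vehicle. Of the 5 genes of that list tested, 3 were lower and 2 higher at either time. Of 13 T lineage transcription factors, 8 were lower and 5 higher at 10 days, and 6 lower and 7 higher at 48 h. Satb1, a chromatin organiser of T cells, gave 0.43 (SE 0.26) and Tox, a factor linked to T cell exhaustion, -0.37 (SE 0.23) at 48 h.

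**Figure D5:**
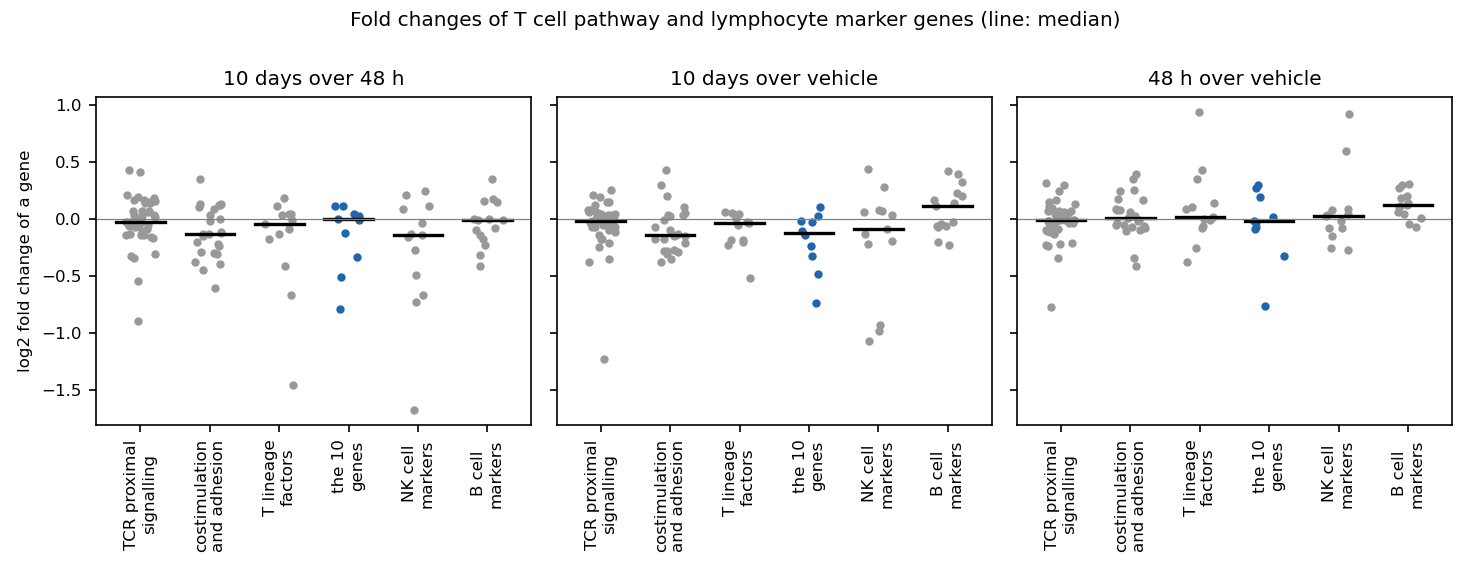
Log2 fold change (vertical axis) of each tested gene in 3 T cell pathway lists, the 10 receptor and coreceptor genes (blue), and natural killer and B cell markers, 1 point per gene with the list median as a line, in the 3 comparisons. The medians of the 10 genes are 0.00031, -0.12 and -0.016 in the 3 panels from left to right, and points of each list lie on both sides of 0.

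Other cells that can carry some of these transcripts were read beside them. The summed linear level of the 13 natural killer cell markers, all tested and led by Prf1, Klrd1 and Nkg7, ran from 7.08 to 8.89 at 10 days, 6.68 to 8.24 at 48 h and 6.85 to 8.51 in vehicle. That of the 10 markers of cross-presenting dendritic cells, led by Irf8, Wdfy4 and Itgae, ran from 33.1 to 50.5 at 10 days, 35.3 to 45.5 at 48 h and 30.7 to 47.5 in vehicle. The 15 B cell markers, led by Cd22, Cd79b and Cd72, summed to 43.0 to 51.7 at 10 days, 34.0 to 95.7 at 48 h and 29.0 to 61.0 in vehicle, with 48 h replicate 5 highest. For the 10 receptor and coreceptor genes themselves the sum ran from 12.0 to 19.5 at 10 days, 13.4 to 19.4 at 48 h and 13.3 to 20.3 in vehicle. The ranges of the 3 groups overlapped for each of these sums. Other lists read for the makeup of the tumours had 0 genes called in each comparison. Of the 18 acinar markers, 2 were higher and 16 lower at 10 days against 48 h, with a median log2 difference of -1.08 and 13 of the 18 at an unadjusted p under 0.05, against 3.47% of all genes. At 48 h against vehicle 16 were higher and 2 lower, with a median of 0.98 and 9 at an unadjusted p under 0.05, against 2.57% of all genes. The split at 10 days against vehicle was 4 higher and 14 lower, with a median of -0.13 and 0 at that threshold. Their summed level ran from 30.1 to 133 at 10 days, 98.8 to 135 at 48 h and 37.3 to 103 in vehicle. All 8 erythroid markers were lower than vehicle at both times, with medians of -1.50 at 10 days and -1.25 at 48 h. At each time 4 of the 8 had an unadjusted p under 0.05, against 3.53% of all genes at 10 days and 2.57% at 48 h. The 10 granulocyte markers were all lower than vehicle at 10 days (median -0.71), and 9 of the 10 were lower at 48 h (median -0.32). At 10 days 3 of the 10 had an unadjusted p under 0.05, against 3.53% of all genes. Of the endothelial markers, all 8 tested were lower than vehicle at both times, with medians of -0.28 at 10 days and -0.59 at 48 h. The 12 ductal and tumour epithelial markers were all lower than vehicle at 10 days (median -0.52), and 8 were higher and 4 lower at 48 h (median 0.10). The 10 cross-presenting dendritic cell markers split 1 higher and 9 lower at 48 h against vehicle (median -0.10), and 4 higher and 6 lower at 10 days. Of 7 lymph node and spleen stroma markers tested, 4 were higher and 3 lower at 48 h against vehicle (median 0.40). At 10 days against 48 h, 4 were higher and 3 lower (median 0.11). In both comparisons 1 stroma marker had an unadjusted p under 0.05 by limma, higher at 48 h, against 2.57% and 3.47% of all genes. Of 13 macrophage and monocyte markers, 11 were higher and 2 lower at 48 h against vehicle, and 9 and 4 at 10 days. Of 10 fibroblast markers, 4 were higher and 6 lower at both times. Of 7 plasmacytoid dendritic cell markers, 5 were higher and 2 lower at 48 h, and 4 and 3 at 10 days. At 48 h 1 macrophage marker, higher, and 1 fibroblast marker, lower, had an unadjusted p under 0.05, against 2.57% of all genes. The part of these cell types in the order of the CD3 chain genes was not tested.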

How the data were processed

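RNA of 16 tumour samples was measured on 1-colour Agilent 8x60K arrays. RNA was amplified to cDNA and chemically coupled to Cy5, per the labels' protocols. Agilent Feature Extraction 11.5.1.1 read the images, per the submitters' processing notes. The deposited intensity is a background-subtracted, detrended linear signal per spot, without scaling between arrays, per the file headers. A quantile-normalized log2 table deposited by the authors (sorted columns differ by at most 0.0043) served as an alternative, with every column matched to a sample.

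Control spots (3671 per array) and outlier spots were left out, log2 processed signals were averaged per probe, and the 75th percentile of the array was subtracted. A gene was represented by its brightest probe and tested if it was well above background on 5 or more arrays. The treatment and time labels gave the groups. The 3 groups were fitted in 1 model with limma 3.58.1 in R 4.3.3 (lmFit, robust eBayes, 2-sided p, Benjamini-Hochberg over all genes, threshold 0.05). Correlations are Pearson's r over 16 arrays and are descriptions. The fit was tested on simulated data. Names and promoter sequences came from RefSeq tables on GRCm38.p6, and probe positions from the files on mm9. Members and gene lists were chosen with earlier results of these data known.

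Named genes are the 10 members, the 2 genes of each pathway list with the smallest p at either time against vehicle, the 5 non-members most correlated with Cd3e, Cd4 and Cd8a, and the 3 brightest markers of a cell type list. A further gene that the rule picks is not reported here. Alternatives covered the deposited table, quantile normalization, normexp background correction, the filter on dim probes, slide as a block and within slides, an intensity trend, the samples fitted, each array left out, other probes and the mean over probes. The number of arrays limits the precision.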

Additional observations from a re-analysis of the deposited data

Results flagged for a closer look

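A single array lay far from the rest of its group in 5 of the 57 checks made on the 19 probes in 3 groups, and chance gives about 1 in 20. The brightest Cd4 probe read 2.133 on 48 h replicate 3, against 1.308 to 1.454 on the other 48 h arrays. The third Cd4 probe read -4.111 on 48 h replicate 2, against -3.062 to -2.659 on the others. The second Cd8a probe read -3.501 on vehicle replicate 6, against -2.927 to -2.611. Cd8b1 read 0.8554 on vehicle replicate 2, against 0.3096 to 0.4967. The brightest Zap70 probe read 2.508 on 10 day replicate 1, against 1.763 to 1.834. Vehicle replicate 2 is the array that shares an ID number with 48 h replicate 5.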

How the results depend on the processing

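The 30 fold changes of the 10 genes (3 comparisons each) were recomputed 387 times under other settings and 480 times with 1 array left out. No value passed the adjusted threshold, and the lowest adjusted p was 0.623. The sign changed 40 times under other settings and 41 times with an array left out, and 7 of the 30 never changed sign: Cd3d in all 3 comparisons, Cd3g and Cd8a at 48 h against vehicle, and Cd3e and Cd3g at 10 days against 48 h. Signal over background limited none of the brightest probes, and the number of arrays limits all of them. No paired analysis was possible because the replicate numbers were given in accession order and pair no samples.

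The count of genes past the threshold, 0 in each comparison, became 1 at 10 days against vehicle and 1 at 48 h against vehicle without a filter on dim probes (4930448H16Rik in both), and 3 at 10 days against 48 h with only these 2 groups in the fit (Dnaaf4, BE945716 and 2210414B05Rik). With an array left out it ran from 0 to 1 in each comparison. The cause was not tested.

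Sign changes at 10 days against 48 h, with the cause not tested, were as follows. Within slide 2 Cd8a was -0.54, Cd28 -0.26, Lck 0.027, Cd247 0.45 and Cd8b1 -0.21. With slide as a block Cd8a was -0.019, with normexp Cd8b1 was -0.0092, and with the mean over probes Zap70 was -0.071. The second probe gave -0.26 for Zap70 and 0.088 for Cd247, and the third -0.023 for Cd4. At 10 days against vehicle, slide 1 gave Cd28 0.087, Lck 0.42, Cd3e 0.043 and Cd247 0.55, and slide 2 gave Zap70 -0.17, Cd4 -0.033 and Cd3g 0.021. The second probe gave Cd8a 0.18, Zap70 -0.31, Cd4 -0.015 and Cd247 0.20, and the mean over probes Zap70 -0.14. Without the 2 arrays that share an ID number Cd28 was 0.033 and Cd8b1 0.061. At 48 h against vehicle, slide 1 gave Zap70 0.28, Cd4 0.13 and Cd247 0.68, and slide 2 gave Cd28 0.026, Lck -0.39, Cd3e -0.14 and Cd8b1 0.15. With slide as a block Lck was -0.045. The mean over probes gave Cd4 0.017 and Cd247 0.0078, the second probe Cd247 0.11, and the third Cd4 0.25 and Cd247 0.23. Without the 2 arrays that share an ID number Zap70 was 0.027 and Cd8b1 0.019.

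Fold changes whose sign changed with an array left out had these ranges. At 10 days against 48 h Cd247 ran from -0.11 to 0.054, Cd28 from -0.039 to 0.19, Cd8a from -0.20 to 0.20, Cd8b1 from -0.037 to 0.060 and Zap70 from -0.026 to 0.16. At 10 days against vehicle Cd28 ran from -0.13 to 0.12, Cd8b1 from -0.053 to 0.061, Lck from -0.26 to 0.019 and Zap70 from -0.11 to 0.093. At 48 h against vehicle Cd4 ran from -0.17 to 0.075, Cd8b1 from -0.061 to 0.058 and Lck from -0.091 to 0.10.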
